A study of Mus musculus with 9 samples.

Results

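The 10 genes described here belong to Toll-like receptor signalling and its feedback on NF-kB: the receptors Tlr1, Tlr2, Tlr4 and Tlr13, the co-receptor Cd14, the adaptor Myd88, the NF-kB regulators Nfkbia, Nfkbiz and Tnfaip3, and the target Icam1. They were taken by name from a table of 27945 mouse genes, all 10 were present, and all 10 were among the 18113 genes with enough counts to be tested. The study sequenced messenger RNA of mouse liver in 9 libraries, 3 from mice given saline, 3 from mice given gefitinib, and 3 from mice given glycyrrhizic acid as well as gefitinib (the combined group), all at 16 days. Gefitinib blocks the kinase activity of EGFR. Glycyrrhizic acid is a saponin of licorice. No group received glycyrrhizic acid without gefitinib, so its own effect cannot be told apart from its effect beside the drug. The sources used here give no dose, strain, sex or age, and do not state that each library came from a separate animal. The p-values therefore describe only how far these libraries spread, which may be technical.

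Toll-like receptors bind microbial molecules and signal through adaptors such as Myd88 to the IKK kinases, which release NF-kB by marking its inhibitor for destruction. Active NF-kB then raises the transcription of chemokines and adhesion molecules, and also of its own inhibitors, which closes a negative feedback loop. In liver, Kupffer cells and recruited monocytes carry much of the receptor machinery, and hepatocytes and endothelial cells also respond.

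NF-kB binds the kappa B motif. The promoters printed here were picked by the result of a search for it: the 3 that held a match, and that of Icam1. Promoter windows of 300 bases around the annotated start came from RefSeq (build GRCm38.p6) and were matched by name for 7 of the 10 genes, with 9 promoters in all. The motif was searched on both strands as the 10-base pattern GGGRNWYYCC, allowing overlapping matches (R is A or G, Y is C or T, W is A or T, N is any base). A stretch that differed from the pattern at any base was not counted. Capitals mark its matches, and bases are numbered from 1 at the 5′ end. Tlr2 (chr3:83841559-83841858, minus strand) held 3 matched windows, at bases 78 to 87, 79 to 88 and 243 to 252, of which the first pair overlap. Nfkbia (chr12:55492598-55492897, minus strand) held 1, at bases 222 to 231, and the first promoter of Tnfaip3 (chr10:19015361-19015660, minus strand) held 2, at bases 126 to 135 and 239 to 248. Icam1 (chr9:21015690-21015989, plus strand), whose level also differed between the groups, is shown as a promoter with no match to this pattern. That does not show that it lacks a site for NF-kB.
Tlr2: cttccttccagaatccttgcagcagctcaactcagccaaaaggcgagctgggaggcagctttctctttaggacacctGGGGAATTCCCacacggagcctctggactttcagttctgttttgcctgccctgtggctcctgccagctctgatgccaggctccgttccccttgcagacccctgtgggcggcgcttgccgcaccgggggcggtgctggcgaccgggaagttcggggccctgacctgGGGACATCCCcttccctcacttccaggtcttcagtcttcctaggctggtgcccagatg
Nfkbia: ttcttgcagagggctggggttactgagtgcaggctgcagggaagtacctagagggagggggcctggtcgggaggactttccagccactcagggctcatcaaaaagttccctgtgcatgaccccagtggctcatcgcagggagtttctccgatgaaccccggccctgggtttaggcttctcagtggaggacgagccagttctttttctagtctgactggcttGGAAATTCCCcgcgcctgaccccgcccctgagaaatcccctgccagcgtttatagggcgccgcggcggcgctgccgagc
Tnfaip3: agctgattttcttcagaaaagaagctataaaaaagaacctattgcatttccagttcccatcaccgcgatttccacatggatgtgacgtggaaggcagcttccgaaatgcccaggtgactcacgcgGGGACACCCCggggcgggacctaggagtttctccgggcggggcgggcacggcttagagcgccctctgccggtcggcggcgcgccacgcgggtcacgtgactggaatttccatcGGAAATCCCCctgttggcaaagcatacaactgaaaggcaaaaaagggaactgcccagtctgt
Icam1: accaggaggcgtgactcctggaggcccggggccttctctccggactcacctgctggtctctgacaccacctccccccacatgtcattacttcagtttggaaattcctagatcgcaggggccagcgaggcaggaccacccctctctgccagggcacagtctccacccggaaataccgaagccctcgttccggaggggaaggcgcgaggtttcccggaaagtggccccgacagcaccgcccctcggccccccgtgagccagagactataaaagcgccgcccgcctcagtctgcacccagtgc
A match was found in 3 of the 9 promoters (33.3%), in 19 of 72 promoters of the other pathway genes listed further on (26.4%), and in 1480 of 32851 promoters in all (4.51%). At least 2 matches stood in 182 of all promoters (0.554%). A match describes letters and not binding, and the promoters of Tlr1, Tlr13 and Myd88, like that of Icam1, held none. The 3 promoters with a match belong to Tlr2 and Tnfaip3, both higher in the combined group, and to Nfkbia, which was not called.

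Libraries held 56440871 to 60665156 counts, so the rarer receptors rested on few reads: Tlr4 had 37 to 128 counts per library, while Nfkbia had 1184 to 2911. Of 8 hepatocyte markers 7 were in the table, and their summed CPM, the reads of a gene scaled to a common library size, was 80500 to 93670 with saline, 83500 to 86350 with gefitinib and 66080 to 79660 in the combined group. All 3 combined libraries thus stood below the other 6; edgeR called 1 of the 7 lower against gefitinib and 1 against saline, and DESeq2 called 1 and 3. Gefitinib replicate 1 stood apart from the other gefitinib libraries in skeletal muscle transcripts, with 204 CPM against 0.899 and 0.997, while the saline libraries held 0.697 to 1.38 CPM and all 3 combined libraries 138 to 177 CPM. Of the 10 muscle markers, edgeR called 9 higher in the combined group against saline and DESeq2 4. Neither called any against gefitinib, where 0 passed an unadjusted p under 0.05. With gefitinib against saline edgeR called 0 and DESeq2 called 2 higher, while all 10 were higher at an unadjusted p under 0.05. The part of muscle transcripts in the results was not tested. The 3 comparisons share their groups with each other. The test was edgeR's quasi-likelihood test on the counts, with Benjamini-Hochberg adjustment over all tested genes, and a gene was called at an adjusted p under 0.05. Levels below are CPM scaled by TMM, folds are from the same fit, and n is 3 libraries per group.

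Of the 10 genes, Icam1 alone was called higher with gefitinib, whereas the combined group was called higher than gefitinib in 5 genes and higher than saline in 7. By edgeR none of the 10 was called lower in any comparison, and 0 were lower at an unadjusted p under 0.05 or by DESeq2. At an unadjusted p under 0.05, 3 were higher with gefitinib against saline, 8 in the combined group against gefitinib and 7 against saline, and DESeq2 called 2, 6 and 7 higher. Of all 18113 tested genes, 2555, 4403 and 5758 had an unadjusted edgeR p under 0.05 in these comparisons, in either direction. Over all genes DESeq2 called 443, 1423 and 2230 higher and 427, 1321 and 1964 lower. Against saline, gefitinib called 1 of 10 genes higher, beside 0.547% of all tested genes called higher and 0.591% called lower. The combined group against gefitinib called 5 of 10 higher (Tlr2, Tlr13, Cd14, Tnfaip3 and Icam1), beside 4.96% of all genes higher and 4.11% lower. The combined group against saline called 7 of 10 higher, with Tlr1 and Nfkbiz added, beside 9.37% of all genes higher and 8.32% lower. The median log2 fold change of the 10 genes was 0.63, 0.86 and 1.58 in these comparisons in turn, against medians of -0.001, 0.005 and -0.009 over all tested genes.

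Groups were also compared by whether their libraries overlapped. All 3 gefitinib libraries exceeded all 3 saline libraries for 3 of the 10 genes (Tlr2, Cd14 and Icam1), as they did for 9.71% of all tested genes, while 10.2% stood lower without overlap. The combined libraries stood above the gefitinib libraries without overlap for 7 genes (all but Tlr4, Myd88 and Nfkbia), beside 16.2% of all genes higher and 15.0% lower. The same 7 genes stood above saline without overlap, beside 19.3% of all genes higher and 18.0% lower.

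**Figure D1:**
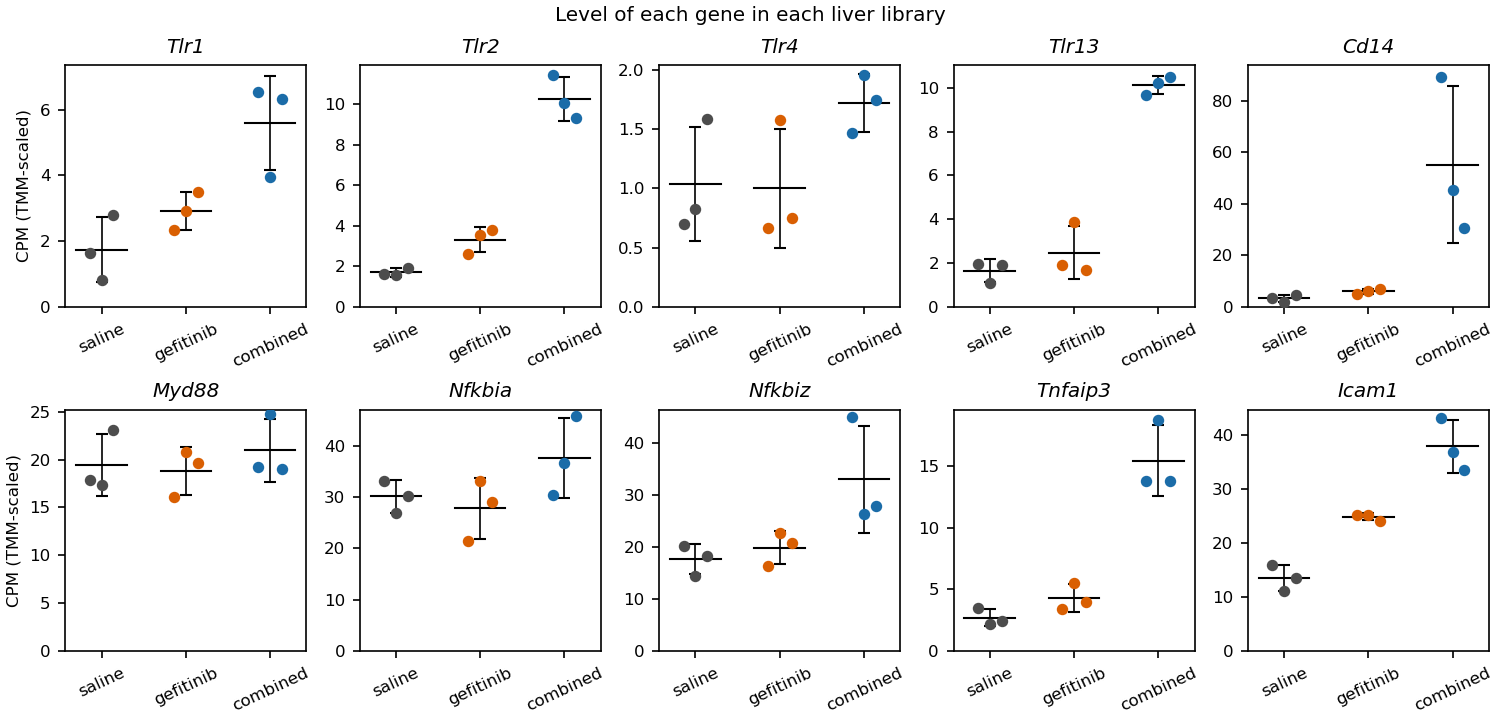
TMM-scaled CPM of each of the 10 genes in the 9 liver libraries; points are libraries, horizontal lines the mean of 3 and bars 1 SD. Cd14 ran from 1.96 to 6.72 in the saline and gefitinib libraries and from 30.6 to 89.4 in the combined libraries, whereas the Myd88 groups overlapped.

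**Figure D2:**
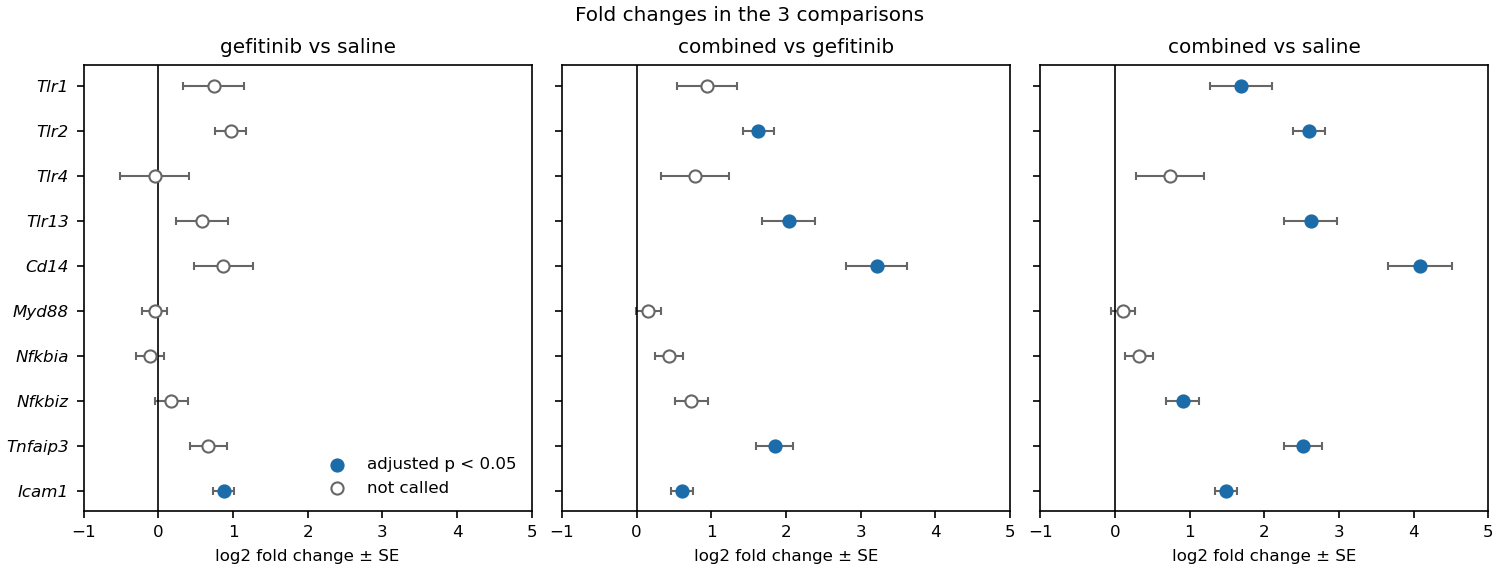
Log2 fold change with its standard error from the edgeR fit for each gene in the 3 comparisons; filled points were called at an adjusted p under 0.05. Gefitinib against saline called Icam1, and the combined group called 5 genes against gefitinib and 7 against saline.

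Tlr2 encodes the receptor of bacterial lipoproteins, which works as a heterodimer with Tlr1 or Tlr6 (ENSMUSG00000027995, chromosome 3, 83836272 to 83841767, minus strand). It stood at 1.61, 1.54 and 1.92 CPM in the saline libraries, at 2.61, 3.55 and 3.78 CPM in the gefitinib libraries, and at 11.4, 10.05 and 9.32 CPM in the combined libraries. The 3 groups did not overlap in any pair. Tlr2 rose 3.10-fold in the combined group against gefitinib (log2 1.63 ± 0.205 SE, adjusted p = 0.00167) and 6.07-fold against saline (log2 2.60 ± 0.214, adjusted p = 0.00011). The gefitinib level was 1.96 times the saline level and missed the threshold (adjusted p = 0.0642), whereas DESeq2 called it (adjusted p = 0.00223).

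Tlr1, the partner that lets Tlr2 bind triacylated lipoproteins (ENSMUSG00000044827, chromosome 5, 64924679 to 64933561, minus strand), followed with more scatter. Its level was 1.63, 0.808 and 2.78 CPM with saline, 2.32, 2.91 and 3.50 CPM with gefitinib alone, and 6.53, 3.94 and 6.33 CPM in the combined libraries. Every combined library exceeded every other library, with combined replicate 2 nearest to the gefitinib values. Tlr1 rose 3.22-fold against saline (log2 1.69 ± 0.415, adjusted p = 0.0208), and the call was lost without saline replicate 1 (adjusted p = 0.0636), combined replicate 1 (0.0665) or combined replicate 3 (0.0619). Against gefitinib its log2 fold change was 0.94 ± 0.405 (adjusted p = 0.186). Of the 3332 windows of 50 bases in its exons, 15.4% also occur in other genes, 454 of them in Tlr6, so its reads may be split with that paralog.

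Tlr13, which in mice senses bacterial ribosomal RNA in endosomes (ENSMUSG00000033777, chromosome X, 106143204 to 106160493, plus strand), stood at 9.68, 10.2 and 10.5 CPM in the combined libraries. The saline libraries held 1.97, 1.06 and 1.92 CPM, and the gefitinib libraries 1.89, 3.86 and 1.66 CPM. Gefitinib replicate 2 was above the other gefitinib libraries but below every combined library. Tlr13 rose 4.09-fold against gefitinib (log2 2.03 ± 0.35, adjusted p = 0.00771) and 6.14-fold against saline (log2 2.62 ± 0.36, adjusted p = 0.00127). With gefitinib against saline its log2 fold change was 0.58 ± 0.347 (adjusted p = 0.508).

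Tlr4, the receptor of lipopolysaccharide (ENSMUSG00000039005, chromosome 4, 66827584 to 66930284, plus strand), was the rarest of the 10 genes. It stood at 0.697, 0.827 and 1.59 CPM with saline, at 0.666, 1.58 and 0.752 CPM with gefitinib alone, and at 1.47, 1.96 and 1.75 CPM in the combined group. The combined values overlapped the highest library of each other group. Its log2 fold change was 0.78 ± 0.455 against gefitinib (adjusted p = 0.335) and 0.73 ± 0.455 against saline (adjusted p = 0.312). No comparison called Tlr4, and its libraries spread widely within the saline and gefitinib groups.

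Cd14, the glycolipid-anchored protein that hands lipopolysaccharide to the Tlr4 complex and also serves Tlr2 (ENSMUSG00000051439, chromosome 18, 36725067 to 36726798, minus strand), differed most. It stood at 3.29, 1.96 and 4.48 CPM with saline, at 4.94, 6.16 and 6.72 CPM with gefitinib alone, and at 89.4, 45.4 and 30.6 CPM in the combined libraries. The lowest combined library was more than 4 times the highest gefitinib library, and combined replicate 1 was the highest of all 9. Cd14 rose 9.28-fold against gefitinib (log2 3.21 ± 0.408, adjusted p = 0.00178) and 17.0-fold against saline (log2 4.09 ± 0.428, adjusted p = 0.000328). Without combined replicate 1 these log2 fold changes were 2.68 and 3.55. Gefitinib against saline gave a log2 fold change of 0.87 ± 0.393 (adjusted p = 0.355).

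Myd88, the adaptor that most Toll-like receptors share (ENSMUSG00000032508, chromosome 9, 119335934 to 119340041, minus strand), did not follow the receptors. Its level was 17.9, 17.3 and 23.1 CPM with saline, 16.0, 20.8 and 19.6 CPM with gefitinib alone, and 19.2, 24.8 and 19.0 CPM in the combined libraries. The 3 groups overlapped throughout. Its log2 fold changes were -0.05 ± 0.164 with gefitinib (adjusted p = 0.941), 0.16 ± 0.164 for combined against gefitinib (adjusted p = 0.622) and 0.11 ± 0.164 for combined against saline (adjusted p = 0.706). The gene shares 290 exon bases (11.3% of its exons) with Acaa1a on the opposite strand, which stood at 341 to 379 CPM in the saline and gefitinib libraries and at 222 to 284 CPM in the combined ones. The sources used here do not give the strand setting of the counting, so reads of the 2 genes may be mixed.

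Nfkbia encodes the inhibitor that holds NF-kB in the cytoplasm and is itself an NF-kB target (ENSMUSG00000021025, chromosome 12, 55489410 to 55492647, minus strand). It stood at 33.2, 26.9 and 30.2 CPM with saline, at 21.3, 33.1 and 29.0 CPM with gefitinib alone, and at 30.3, 36.6 and 45.8 CPM in the combined group. Combined replicates 2 and 3 were the highest libraries, while combined replicate 1 lay within the other groups. The log2 fold change was 0.43 ± 0.188 against gefitinib (adjusted p = 0.189), 0.32 ± 0.188 against saline (adjusted p = 0.283) and -0.11 ± 0.188 for gefitinib against saline (adjusted p = 0.859).

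Nfkbiz, a nuclear member of the inhibitor family that modulates transcription of secondary NF-kB targets (ENSMUSG00000035356, chromosome 16, 55811375 to 55838899, minus strand), was highest in combined replicate 1. It stood at 20.2, 14.5 and 18.2 CPM with saline, at 16.3, 22.6 and 20.7 CPM with gefitinib alone, and at 44.9, 26.3 and 27.8 CPM in the combined group. Every combined library exceeded the other 6, the lowest at 26.3 CPM against 22.6 CPM in the highest of those. Nfkbiz rose 1.87-fold against saline (log2 0.91 ± 0.222, adjusted p = 0.0203), a call lost without saline replicate 2 (adjusted p = 0.0752), saline replicate 3 (0.0537) or combined replicate 1 (0.0593). Against gefitinib its log2 fold change of 0.73 ± 0.221 missed the threshold (adjusted p = 0.0685), although it passed with DESeq2 (adjusted p = 0.0147) and with scaling by library size alone (0.0469).

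Tnfaip3 encodes a ubiquitin-editing enzyme that shuts down signalling upstream of the IKK kinases (ENSMUSG00000019850, chromosome 10, 19000910 to 19015410, minus strand). Its level was 3.47, 2.19 and 2.44 CPM with saline, 3.40, 5.53 and 3.96 CPM with gefitinib alone, and 13.8, 18.8 and 13.8 CPM in the combined libraries. The combined libraries lay well above the rest, and the saline and gefitinib libraries overlapped. Tnfaip3 rose 3.60-fold against gefitinib (log2 1.85 ± 0.25, adjusted p = 0.00253) and 5.72-fold against saline (log2 2.52 ± 0.257, adjusted p = 0.000307). Gefitinib against saline gave a log2 fold change of 0.67 ± 0.248 (adjusted p = 0.261). Of the 3 feedback genes, the rarest per length in the control group thus had the largest fold, while Nfkbia, the most abundant, was not called, with an unadjusted p of 0.0439 against gefitinib.

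Icam1, an adhesion molecule to which leukocytes bind and a common NF-kB target (ENSMUSG00000037405, chromosome 9, 21015985 to 21028817, plus strand), was the only one of the 10 called with gefitinib. Its level was 15.9, 11.1 and 13.6 CPM with saline, 25.3, 25.2 and 24.1 CPM with gefitinib alone, and 43.2, 37.0 and 33.6 CPM in the combined libraries. The 3 groups were fully separated and stood in the order saline, gefitinib, combined. Icam1 rose 1.83-fold with gefitinib against saline (log2 0.87 ± 0.145, adjusted p = 0.0276), 1.52-fold in the combined group against gefitinib (log2 0.61 ± 0.144, adjusted p = 0.0297) and 2.79-fold against saline (log2 1.48 ± 0.147, adjusted p = 0.000254). The gefitinib call was made in 9 of 17 alternatives, with adjusted p from 1.83e-05 to 0.101, and was lost with no filter (0.0517), with log2(FPKM + 1) (0.066) or log2(FPKM + 0.1) (0.0523), without saline replicate 2 (0.069) or 3 (0.0879), and without gefitinib replicate 1 (0.0753), 2 (0.101) or 3 (0.0817). The call against gefitinib held in 11 of 17 and was lost with no filter on low counts (0.0501), without gefitinib replicate 1 (0.0882), 2 (0.0724) or 3 (0.0939), and without combined replicate 1 (0.103) or 2 (0.0636). Icam1 shares 511 exon bases (11.7%) with the antisense gene Gm47079, which reached at most 0.179 CPM, and 2.27% of its windows of 50 bases occur in other genes.

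Levels per length, as the FPKM values deposited by the authors, changed the order of the genes. In saline liver Nfkbia led at 15.5 ± 2.15 FPKM (SD, n = 3), followed by Myd88 at 6.26, Nfkbiz at 2.92, Icam1 at 2.58, Cd14 at 1.55, Tlr2 at 0.463, Tlr1 at 0.430, Tlr13 at 0.318, Tnfaip3 at 0.308 and Tlr4 at 0.153 FPKM. Library values overlapped between Nfkbiz and Icam1, between Icam1 and Cd14, and between each neighbour from Tlr2 to Tnfaip3, so those places in the order were not separated. With gefitinib the order was close to that of saline, with Icam1 above Nfkbiz at 4.88 and 3.39 FPKM and Tnfaip3 above Tlr13 at 0.509 and 0.494 FPKM. In the combined group Cd14 had the highest mean, at 31.2 ± 18.4 FPKM, above Nfkbia at 22.5, but their library values overlapped. Tlr4 stayed last in each group, at 0.154 FPKM with gefitinib and 0.298 in the combined group.

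Ratios of FPKM within a library compare the genes free of the scaling between libraries. The ratio of Tnfaip3 to Nfkbia was 0.0232, 0.0181 and 0.0176 with saline, 0.0353, 0.0371 and 0.0304 with gefitinib, and 0.102, 0.114 and 0.0668 in the combined group. The 3 groups did not overlap, and the exact two-sided permutation p was 0.1 for each pair, the smallest that 20 splits of 3 against 3 libraries allow. The ratio of Cd14 to Tlr4 was 10.7 ± 4.07 with saline (SD, n = 3), 21.9 ± 8.56 with gefitinib and 109 ± 75.6 in the combined group, where replicate 1 reached 196 and the others 75.0 and 56.5. The ratio of Tlr2 to Tlr4 was 3.34 ± 1.04, 6.96 ± 2.66 and 11.3 ± 2.70 in the same order. The ratio of Nfkbiz to Nfkbia was 0.475 in combined replicate 1 but 0.231 and 0.195 in the other combined libraries, beside 0.218 to 0.245 with gefitinib. Over 6 ratios and 3 comparisons, 18 exact permutation tests gave a smallest Benjamini-Hochberg adjusted p of 0.164, so none could pass 0.05.

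**Figure D3:**
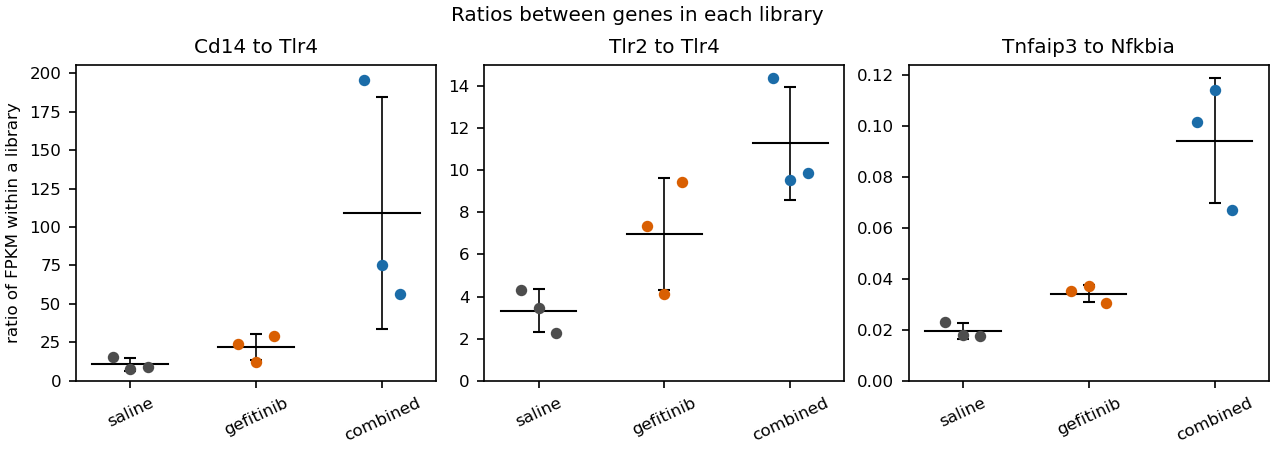
Ratios of FPKM between 2 genes within each library, for Cd14 to Tlr4, Tlr2 to Tlr4 and Tnfaip3 to Nfkbia; points are libraries, lines the mean of 3 and bars 1 SD. Tnfaip3 to Nfkbia lay at 0.0176 to 0.0232 with saline and at 0.0668 to 0.114 in the combined group.

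The rest of the pathway was read from 6 lists with 73 genes, of which 69 were tested; Il6, Sele, Ptgs2 and Tnip3 had too few counts. With gefitinib against saline edgeR called none of the 69. At an unadjusted p under 0.05, 10 were higher and 3 lower, beside 2555 of all 18113 tested genes in either direction. DESeq2 called 2 of the 69 higher, beside 443 of all tested genes. The lowest edgeR adjusted p was 0.109, for Tnip1, which encodes a partner of the Tnfaip3 protein, and the median log2 fold change was 0.11. In the combined group 12 were called higher and 2 lower against gefitinib (median log2 fold change 0.30), beside 4.96% of all genes higher and 4.11% lower. Against saline 25 were called higher and 2 lower (median 0.47), beside 9.37% of all genes higher and 8.32% lower.

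Among the IKK kinases and NF-kB subunits, 3 of 10 were called higher against gefitinib and 4 higher and 1 lower against saline. Rela, the main transactivating subunit, stood at 56.3, 53.7 and 50.1 CPM with saline, 48.3, 49.9 and 53.7 CPM with gefitinib alone, and 121, 85.5 and 94.5 CPM in the combined group. It rose 1.98-fold against gefitinib (adjusted p = 0.00222) and 1.88-fold against saline (adjusted p = 0.00157). Relb, a subunit of the alternative NF-kB pathway, rose 3.65-fold against gefitinib (adjusted p = 0.00546) and 3.38-fold against saline (0.00363). Nfkb2, which encodes the precursor that pairs with Relb, rose 2.26-fold (0.0104) and 2.43-fold (0.00367), and Ikbke, a kinase related to the IKK enzymes, rose 1.76-fold against saline (0.0143). Chuk, which encodes an IKK catalytic subunit and was picked out after its values were seen, was the gene called lower against saline (log2 -0.34, adjusted p = 0.0292).

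Of the other 14 inhibitors tested, 2 were called higher against gefitinib and 5 against saline. Tnip1 rose 1.85-fold against saline, from 10.6 ± 1.84 to 19.6 ± 0.848 CPM (SD, n = 3, edgeR adjusted p = 0.0036). Bcl3, a nuclear relative of Nfkbia, rose 1.66-fold against gefitinib (adjusted p = 0.0472) and 2.50-fold against saline (0.00203). Irak3, a kinase-like brake on Myd88 signalling, rose 4.67-fold against gefitinib (adjusted p = 0.0377) and 3.85-fold against saline (0.0386), from means under 1 CPM. Zc3h12a, a nuclease that degrades cytokine messages, rose 2.72-fold against saline (0.0194).

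Targets of NF-kB had the highest list median in each comparison. With gefitinib against saline it was a log2 fold change of 0.53. There edgeR called 0 of 17, and 3 were higher and 1 lower at an unadjusted p under 0.05. In the combined group it was 1.13 against gefitinib, with 4 of 17 called higher and 1 lower. Against saline it was 1.66, with 7 called higher. Il1rn, which encodes the antagonist of the interleukin 1 receptor, stood at 3.41, 4.75 and 2.35 CPM with saline, 4.11, 4.53 and 3.66 CPM with gefitinib alone, and 30.8, 24.7 and 23.2 CPM in the combined group. It rose 6.39-fold against gefitinib (adjusted p = 0.000504) and 7.48-fold against saline (0.00014). The chemokine Cxcl2, which attracts neutrophils, rose 12.6-fold against gefitinib (0.00157) and 13.5-fold against saline (0.000716), from 0.133 to 0.245 CPM in the saline and gefitinib libraries to 1.81 to 2.81 CPM. Cxcl10, an interferon-induced chemokine, rose 5.24-fold (0.0113) and 7.78-fold (0.00238), the monocyte chemokine Ccl2 rose 7.74-fold against gefitinib (0.0264), and Vcam1, an adhesion molecule like Icam1, rose 3.55-fold against saline (0.0042). Tnf and Il1b, named after their values were seen, were not called in any comparison, and Tnf averaged 0.446 CPM with saline and 0.826 CPM in the combined group. Sod2, likewise picked out after its values were seen, was the target called lower against gefitinib (log2 -0.39, adjusted p = 0.0364).

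Among the 8 other Toll-like receptors the directions were mixed. Tlr5, the flagellin receptor, stood at 5.67, 6.27 and 4.57 CPM with saline, 6.65, 8.28 and 7.05 CPM with gefitinib alone, and 2.38, 3.91 and 2.75 CPM in the combined group. It fell 2.43-fold against gefitinib (adjusted p = 0.00986) and 1.82-fold against saline (0.0284). Tlr7 and Tlr8, endosomal receptors of single-stranded RNA, rose 3.79-fold (0.0334) and 4.52-fold (0.0257) against saline. Of 8 co-receptors and chaperones, 2 were called higher against gefitinib and 4 against saline. These were Cd180, a receptor that resembles Toll-like receptors (3.30-fold, 0.043, and 3.57-fold, 0.0213), its partner Ly86 (2.12-fold, 0.0274, and 3.05-fold, 0.00263), and, against saline, the scavenger receptor Cd36 (5.48-fold, 0.00595) and the receptor chaperone Unc93b1 (1.43-fold, 0.0178). Of 12 adaptors and proximal kinases, Ticam1, the adaptor of Tlr3 and Tlr4 that bypasses Myd88, rose 1.61-fold against gefitinib (0.0145) and 1.38-fold against saline (0.0414). Traf3 (1.49-fold, 0.0171) and Irak1 (1.31-fold, 0.0296), which relay the receptor signal, rose against saline.

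Of the 14 calls named in these lists against gefitinib, 8 were made in all 17 alternatives (Tlr5, Ticam1, Rela, Relb, Nfkb2, Il1rn, Cxcl2 and Cxcl10), as were 12 of the 23 named against saline. Each loss below gives the highest adjusted p over the 17 alternatives and the single libraries whose omission ended the call. Against gefitinib, Ly86 (0.0954) was lost without gefitinib replicate 1 or 3 or any combined library, Cd180 (0.112) without any library but gefitinib replicate 2, and Bcl3 (0.15) without any but combined replicate 3. Irak3 (0.129) was lost without saline replicate 2, gefitinib replicate 1 or 3 or any combined library, and Ccl2 (0.0936) without any gefitinib library or combined replicate 1 or 2. Sod2 (0.258) was lost without saline replicate 3 or any gefitinib or combined library, with no filter, with scaling by library size alone and with either FPKM scale. The calls of Cd180, Bcl3 and Irak3 against gefitinib were also lost with no filter. Those of Cd180 and Bcl3 were lost with only the 6 libraries compared as well. Without gefitinib replicate 2 the log2 fold change of Irak3 was 2.94 in place of 2.23.

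Against saline, the omission of saline replicate 1 or 2 ended the calls of Tlr5 (0.096), Tlr7 (0.122), Tlr8 (0.0843), Unc93b1 (0.0662), Cd180 (0.0711), Zc3h12a (0.0656) and Irak3 (0.135), and that of saline replicate 3 ended those of Tlr7 and Cd180. Among the combined libraries, omission of replicate 1 ended the calls of Tlr5, Zc3h12a and Irak3, that of replicate 2 those of Tlr7, Tlr8, Unc93b1, Cd180 and Zc3h12a, and that of replicate 3 those of Tlr5, Tlr7, Tlr8, Unc93b1 and Irak3. Traf3 (0.0666) was lost without saline replicate 1 or combined replicate 1. Irak1 (0.0995) and Ticam1 (0.126) were lost without saline replicate 2 or 3 or any combined library, and Ticam1 also without gefitinib replicate 1. Chuk (0.354) was lost without any saline or combined library, with scaling by library size alone and with either FPKM scale. The fall of Tlr5 against saline was also not called with scaling by library size alone, with either FPKM scale or with only the 6 libraries compared. That last setting also ended the call of Tlr7 against saline, and no filter ended those of Tlr7, Ticam1 and Irak3.

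**Figure D4:**
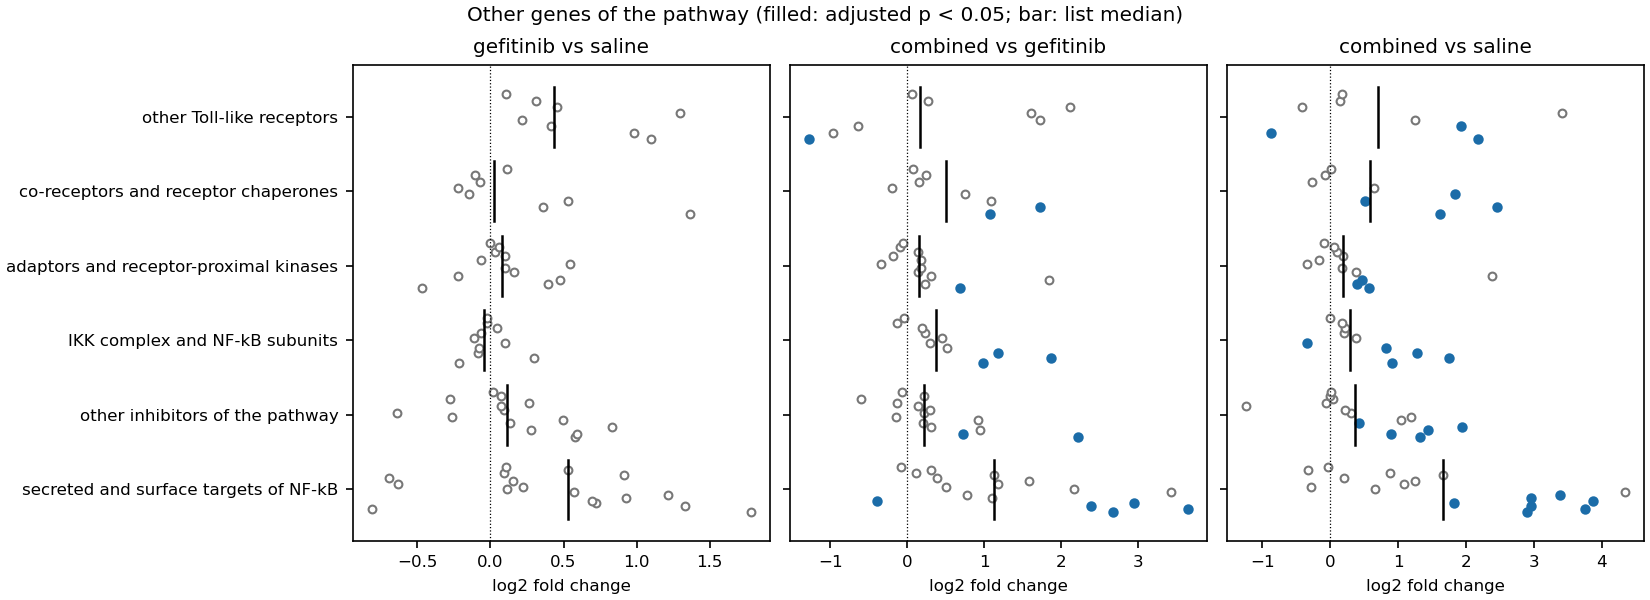
Log2 fold changes of the 69 tested genes of 6 pathway lists in the 3 comparisons; each point is a gene, filled where the adjusted p was under 0.05, and the vertical bar is the list median. No point is filled for gefitinib against saline, and the target list has the highest median in all 3 comparisons.

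Markers of some cell types also differed between the groups, some higher and some lower, and their part in the results was not tested. In bulk liver RNA, more cells of a type and more RNA per cell cannot be told apart. The 10 monocyte and monocyte-derived macrophage markers summed to 60.4 to 75.0 CPM with saline, 74.5 to 103 CPM with gefitinib alone and 521 to 720.5 CPM in the combined group, and none was at 0 throughout a group. Of these 10, 5 were called higher in the combined group against gefitinib and 7 against saline, and 3 were called higher with gefitinib against saline. The 10 Kupffer cell markers summed to 232 to 387 CPM, 329 to 413 CPM and 355 to 639 CPM in the same order, with 3 called higher against saline. Against gefitinib edgeR called 0, while 3 were higher at an unadjusted p under 0.05 and DESeq2 called 1. The 10 neutrophil markers summed to 3.92 to 6.38 CPM, 14.7 to 31.0 CPM and 13.3 to 172 CPM, and of 9 tested 7 were called higher in the combined group against saline. Against gefitinib edgeR and DESeq2 called 0 of the 9, and 2 were higher at an unadjusted p under 0.05. With gefitinib against saline edgeR also called 0 of the 9, while 7 were higher at an unadjusted p under 0.05 and DESeq2 called 3 higher. The median log2 fold change of the 9 in that comparison was 3.02. Ly6g and Mmp8, both neutrophil markers, were at 0 in every saline library.

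Combined replicates 1, 2 and 3 held 89.4, 45.4 and 30.6 CPM of Cd14. The same libraries held 34.9, 13.3 and 172 CPM of neutrophil markers, 355, 370 and 639 CPM of Kupffer cell markers and 634, 720.5 and 521 CPM of monocyte markers. Whether Cd14 followed any of these sums was not tested, and the order of 3 libraries cannot decide it. Sinusoidal endothelial markers, from cells that also carry Icam1, summed to 304 to 398 CPM with saline, 127 to 152 CPM with gefitinib alone and 70.2 to 107 CPM in the combined group. Their link to the level of Icam1 was not tested. All 10 endothelial markers were called lower in the combined group against saline, 8 of 10 with gefitinib against saline and 5 of 10 in the combined group against gefitinib. The 15 immediate early genes, which respond quickly to stress and tissue handling, summed to 176 to 369 CPM with saline, 121 to 181 CPM with gefitinib alone and 447 to 565 CPM in the combined group, and 10 were called higher against gefitinib and 9 against saline. Of 10 stellate cell and fibroblast markers, edgeR called 2 higher in the combined group against gefitinib, and 2 higher and 2 lower against saline. With gefitinib against saline it called 0 of them, while 4 were lower at an unadjusted p under 0.05 and DESeq2 called 3 lower. Of the 19 tested markers of cholangiocytes, T and NK cells and B and plasma cells, edgeR called 0 higher against gefitinib, as did DESeq2, with 0 higher at an unadjusted p under 0.05. Of the 8 T and NK cell markers, 1 was lower there at an unadjusted p under 0.05. DESeq2 called 1 of these 8 lower and edgeR 0. The 6 B and plasma cell markers had a median log2 fold change of -1.32 against gefitinib, with 0 called by either test.

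**Figure D5:**
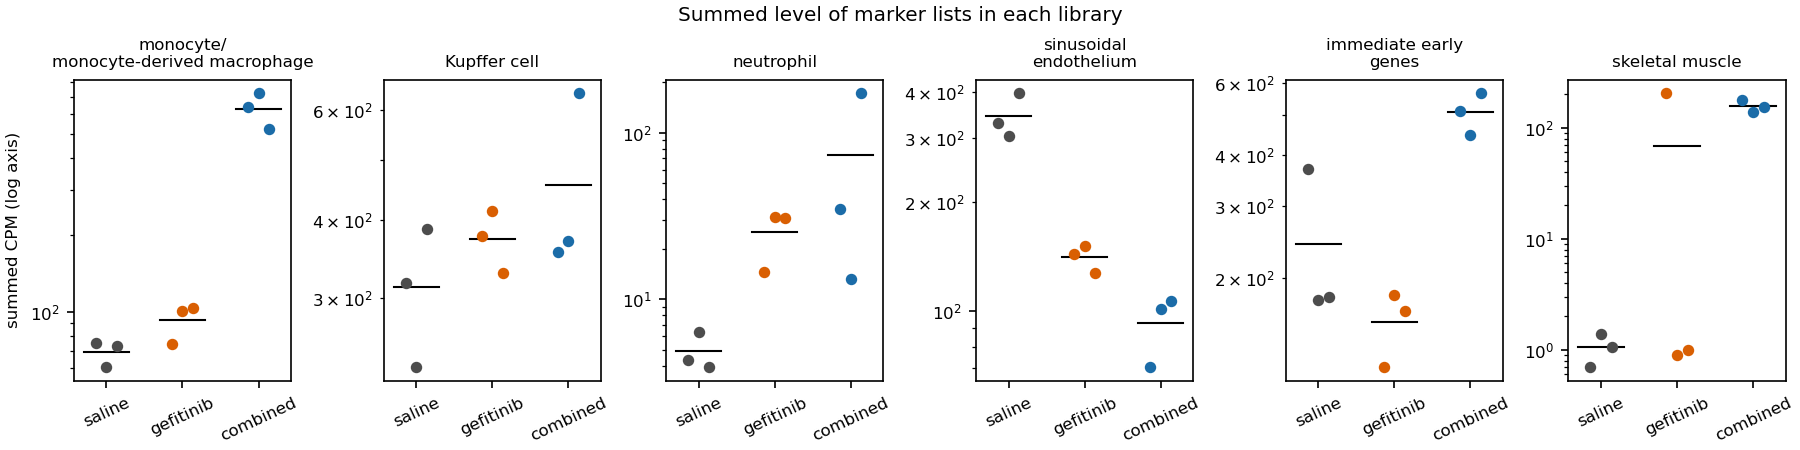
Summed CPM of 6 marker lists in each library on log axes; points are libraries and lines the mean of 3. The combined libraries held 521 to 720.5 CPM of monocyte and macrophage markers, against 60.4 to 103 CPM in the saline and gefitinib libraries.

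The tested genes outside the 10 whose profile was most like their mean were found by the root mean square difference of centred log2 CPM over the 9 libraries, among 18103 genes. The closest was Smox, which encodes spermine oxidase, at 0.119. Ly86, the partner of Cd180, followed at 0.140, and then Iqgap1, a scaffold of the actin cytoskeleton, at 0.146. Cyth4, an exchange factor for small GTPases of blood cells, stood at 0.174 and Pkib, an inhibitor of protein kinase A, at 0.194. The 10 genes themselves lay between 0.315 (Icam1) and 1.05 (Cd14) from their own mean. The genes named here were picked as the closest of 18103, so their smaller distances come from that choice.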

How the data were processed

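Liver RNA of 9 libraries in 3 groups of 3 was analysed from 1 deposited gene table. Per the file headers, it holds counts and the authors' FPKM for each gene in each library. The counts were taken here as unscaled read counts. All 18 columns of values matched a library by name. The sources used here do not give the aligner or counter. Coordinates are in GRCm38 (mm10), per the submitters' processing notes, and 27859 IDs were found in GENCODE M21.

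Counts were filtered with filterByExpr, scaled by TMM (factors 0.905 to 1.14) and tested in edgeR 4.0.16 (R 4.3.3) by the quasi-likelihood test, with 1 mean for each group, all libraries in the fit, and 6 residual degrees of freedom. Limma 3.58.1 on log2(FPKM + 1) and log2(FPKM + 0.1), and DESeq2 1.42.0, were alternatives, with the replicate block, RLE scaling, library size alone, no filter, only the 6 libraries compared, and each library left out. Fold changes on the log2(FPKM + pseudocount) scale understate those of low genes. Likeness used log2 CPM with a prior count of 2. Figures used matplotlib 3.10.9 in Python 3.11.15.

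The members, gene lists and tests were chosen with earlier results of these data known. All 10 members are named. Of each pathway list, up to 4 called genes per comparison with the smallest adjusted p are named, and the 5 genes most like the members. Within a group, chi-square divided by its degrees of freedom was 74.8 to 155 for pairs of libraries, beyond the sampling noise of reads. Each library was counted as 1 replicate, but this check does not show that each came from a separate animal. The test was checked on simulated counts. Each simulation changed 67, 67 and 66 genes by 1.5-fold, 2-fold and 4-fold, all with a mean above 1 CPM, and gave each gene the same dispersion in all groups. The data gave more calls, 206 for gefitinib against saline, 1644 for combined against gefitinib and 3205 for combined against saline. The rates below therefore belong to the simulated setting and may differ in the data. For combined against gefitinib (17444 genes) it recovered 5.97% of changes of 1.5-fold, 44.8% at 2-fold and 87.9% at 4-fold, and 4 among 96 calls were false. For gefitinib against saline (17469 genes) it recovered 4.48%, 29.9% and 87.9%, and 1 call among 82 was false. For combined against saline (17470 genes) it recovered 4.48%, 41.8% and 89.4%, and 9 calls among 99 were false.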

Additional observations from a re-analysis of the deposited data

How the results depend on the processing

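For the 10 genes, 476 of 510 values of fold change kept their direction and their side of the threshold, 20 lost a call, 3 gained one and 11 changed sign, the last in comparisons that were not called in either setting. With gefitinib against saline the log2 fold change of Tlr4, -0.05, became 0.003 with library size alone and 0.001 with log2(FPKM + 1), and ran from -0.537 to 0.393 when 1 library was left out, with values above 0 without saline replicate 3, gefitinib replicate 1 or gefitinib replicate 3 (0.393, 0.172 and 0.119). That of Myd88, -0.048, became 0.002 with both FPKM scales and ran from -0.125 to 0.095, above 0 without saline replicate 3 or gefitinib replicate 1 (0.095 and 0.055). That of Nfkbia, -0.114, ran from -0.25 to 0.045, above 0 without gefitinib replicate 1. That of Myd88 in the combined group against saline, 0.11, ran from -0.027, without combined replicate 2, to 0.253. The calls of Tlr2, Tlr13, Cd14 and Tnfaip3 against gefitinib and against saline, and of Icam1 in the combined group against saline, were made in all 17 alternatives. For gefitinib against saline the 1 call among the 10 became 2 with DESeq2 and 0 with no filter, with log2(FPKM + 1) and with log2(FPKM + 0.1), and leaving out 1 library gave 0 to 1. Leaving out 1 library gave 4 to 5 calls against gefitinib and 5 to 7 for combined against saline. Over all genes, gefitinib against saline gave 206 calls, and 82 with the replicate block, 870 with DESeq2, 82 with no filter, 103 with log2(FPKM + 1), 115 with log2(FPKM + 0.1) and 32 to 171 without 1 library. Combined against gefitinib gave 1644 calls, and 1028 with the replicate block, 2744 with DESeq2, 1092 with no filter and 751 to 1497 without 1 library. Combined against saline gave 3205, and 2065 to 2967 without 1 library. The cause of these shifts was not tested. The replicate numbers are not stated to pair the libraries. Deviations of same-numbered libraries from their group means had correlations from -0.0756 to 0.0716, which cannot settle whether a pairing exists. The replicate block kept the members' calls at 1, 5 and 7, for the same genes. It ended the calls of Ly86, Cd180, Irak3, Bcl3 and Sod2 against gefitinib and of Irak1, Ticam1, Irak3 and Chuk against saline. Scaling moved the balance of calls: 899 higher and 745 lower against gefitinib became 1513 and 380 with library size alone, 1851 and 406 with log2(FPKM + 1) and 1664 and 400 with log2(FPKM + 0.1). Against saline, 1698 and 1507 became 2980 and 805, 3314 and 849, and 3266 and 863. The median of all genes then stood at log2 0.17 and 0.20 with library size alone and 0.15 and 0.18 with log2(FPKM + 0.1). Tlr4 rested on as few as 37 counts in a library.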

Other observations

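Tlr12 and Tlr3, noticed after their values were seen, stood, like Tlr5, lower in the combined group than with gefitinib. Tlr12, which in mice binds profilin of protozoan parasites, averaged 2.43 ± 0.900 CPM with saline (SD, n = 3), 5.21 ± 0.771 CPM with gefitinib and 2.68 ± 0.584 CPM in the combined group. Its log2 fold change was 1.10 ± 0.3 SE with gefitinib against saline (edgeR adjusted p = 0.126) and -0.96 ± 0.299 for combined against gefitinib (adjusted p = 0.0766). Tlr3, the receptor of double-stranded RNA, averaged 5.14 ± 0.745 CPM, 5.99 ± 1.02 CPM and 3.85 ± 0.338 CPM in the same order, with a log2 fold change of -0.64 ± 0.202 for combined against gefitinib (adjusted p = 0.0816). Neither passed the threshold by edgeR's test with all libraries. DESeq2 called Tlr12 higher with gefitinib against saline (adjusted p = 0.0188), and called Tlr12 (0.0247) and Tlr3 (0.0361) lower in the combined group against gefitinib. Without saline replicate 1, edgeR also called Tlr12 lower against gefitinib. Against saline the combined group gave Tlr12 a log2 fold change of 0.14 and Tlr3 one of -0.42 (edgeR adjusted p = 0.802 and 0.189).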
